A study of Mus musculus with 104 samples.

Results

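The effect of 1 glycol nucleic acid nucleotide on the transcriptome of siRNA-treated hepatocytes was examined by setting the parent siRNA D4 directly against D5 at 50 nM. All libraries with these treatment labels were used, 4 for each siRNA, which make up 8 of the 104 RNA-seq libraries of the series. D4 and D5 are GalNAc-siRNAs, duplexes linked to a sugar cluster that hepatocytes take up, and share 1 guide sequence against the mRNA of Ttr (transthyretin, a plasma carrier made by the liver). D5 differs from D4 by GNA-G in place of the nucleotide at position 6 of its 23-nucleotide guide. Primary mouse hepatocytes (PMH), bought from Thermo Fisher Scientific/Gibco, were transfected with Lipofectamine RNAiMax and lysed after 24 h. The 8 mock libraries had no siRNA dose and are used for reference, as are the same 2 siRNAs at 10, 1 and 0.1 nM (4 libraries each). The labels do not say whether libraries of a group came from separate animals, platings or wells, so that p-values measure the spread between these libraries, which may be technical.

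An siRNA guide is loaded into Argonaute 2, which cleaves an mRNA that pairs along most of the guide. Pairing of only the seed, the guide bases from position 2 to position 8, with the 3′-UTR of another mRNA can lower that mRNA as a microRNA does, and such off-target effects matter for the safety of liver-directed siRNAs. GNA is an acyclic nucleotide that weakens base pairing, and it has been placed in the seed to reduce these effects. The question of the comparison is which mRNAs differ between cells given the parent and cells given the guide with GNA-G at position 6.

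The genes with the strongest seed match and the lowest level with D4 relative to D5 are shown first, because the site they share is the feature that the rule for the comparison did not use. A mer8 match holds CTCTATA, the complement of guide positions 2 to 8, followed by an A opposite guide position 1. A mer7m8 match lacks that A, and a mer7A1 match pairs with positions 2 to 7 and has the A. One window of 30 bases from the annotated 3′-UTR (GRCm39, GENCODE vM39) is given per gene, 5′ to 3′ on the mRNA strand. Capitals mark the mer8 match, and the third capital lies opposite guide position 6, the GNA position of D5.
Uhmk1 (chr1:170026693-170026722, minus strand): gagctaacacaCTCTATAAccatttcttcc
Rnft1 (chr11:86387313-86387342, plus strand): actgtattatgCTCTATAAtatgactagta
Ifi204 (chr1:173574920-173574949, minus strand): tcatttgttgtCTCTATAActtctataact
Man1a2 (chr3:100471089-100471118, minus strand): tattctgtttgCTCTATAAatagccagcaa
Gbp7 (chr3:142252421-142252450, plus strand): tataggtcactCTCTATAAattaatggcaa
Parp12 (chr6:39063923-39063952, minus strand): gggttaaaagcCTCTATAAccaggcccgac
Arpc5 (chr1:152651223-152651252, plus strand): cagcgcagaaaCTCTATAAactgctgtttt
Fbxo8 (chr8:57044924-57044953, plus strand): actgacatatgCTCTATAAatggagtgttt
In the flanking bases these windows differ. With the flank read on, pairing ran without a break from position 2 to position 11 in Man1a2 and to position 10 in Rnft1 and Fbxo8, and ended at position 8 in the other 5 windows. Parp12 has a second mer8 site in the same 3′-UTR, at chr6:39063681-39063710. Over all 20973 annotated 3′-UTRs, 3.05% hold a mer8 match and 18.4% hold at least 1 of the 3 match types. CTCTATA on the mRNA strand, with or without the A, is held by 9.15%. None of 1738 mature mouse miRNAs in RefSeq (GRCm39) has the same bases at positions 2 to 8.

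On target, D4 and D5 could not be told apart at 50 nM. Ttr had 11, 4, 7 and 3 counts in the 4 D4 libraries and 3, 7, 5 and 2 counts in the 4 D5 libraries, and the 2 groups overlapped. Levels are given in counts per 1000000 gene counts of a library, scaled by a TMM normalization factor per library (CPM). The level of Ttr was 1.20 ± 0.66 with D4 and 0.979 ± 0.42 with D5 (SD, n = 4 each). Mock ranged from 539 to 717 CPM with a median of 674. The summed counts gave a D4 to D5 ratio of 1.22 with an exact 95% interval from 0.634 to 2.41, which covers counting error only. The exact permutation test over libraries (two-sided) gave p = 0.6 at 50 nM, and 0.114, 0.6 and 0.971 at 10, 1 and 0.1 nM, with adjusted values of 0.8, 0.457, 0.8 and 0.971 over the 4 doses. The smallest p that 4 against 4 libraries allow is 0.0286. At 0.1 nM the D4 libraries had 2.85 to 5.69 CPM. D5 replicate 2 had 72.3 CPM and the other D5 libraries 1.16 to 3.32 CPM, so that 1 library sets the difference of the means. Ttr was already far below mock at the lowest dose, which leaves little room to tell the siRNAs apart at any dose.

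Away from the target the 2 siRNAs differed widely. edgeR tested 11064 genes and called 2529 at an adjusted p under 0.05, which is 22.9% of the genes tested. With D4, 1526 genes (13.8%) were lower than with D5 and 1003 (9.07%) were higher. Changes over 2-fold numbered 203 lower and 97 higher, and the median log2 fold change of all genes tested was 0.012. The libraries of the 2 siRNAs did not overlap in 2638 genes (23.8%), of which 2083 were also called. Each library held 4956857 to 5338273 gene counts with D4 and 3659588 to 4783543 with D5. As these are bulk cultures, fewer cells of a type and less of an RNA per cell cannot be told apart.

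**Figure D1:**
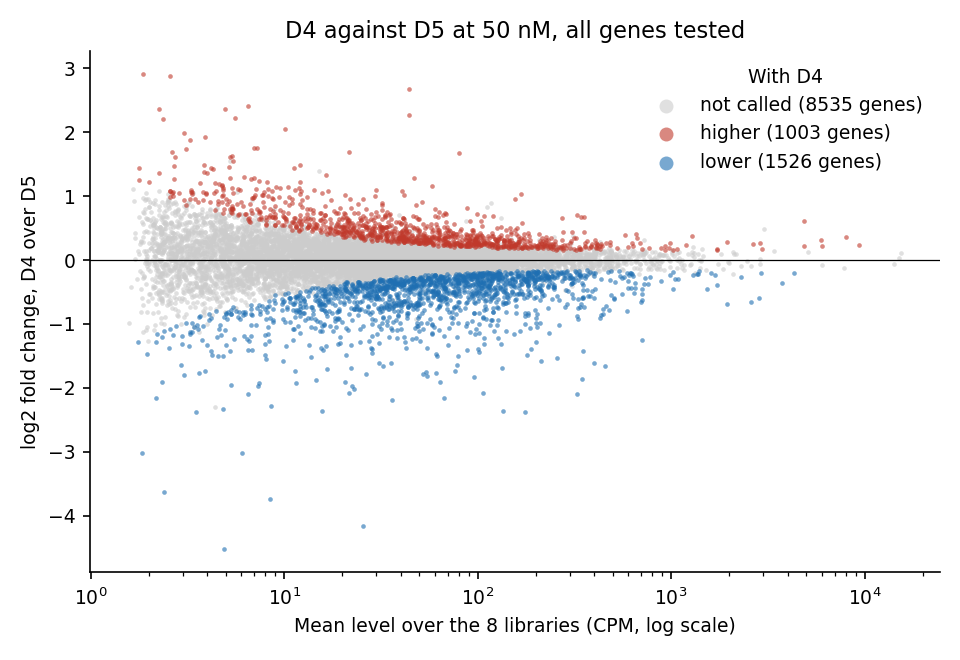
Each point is 1 of 11064 genes, with the mean level over the 8 libraries (CPM, log scale) on the horizontal axis and the log2 fold change of D4 over D5 at 50 nM on the vertical axis. The 1526 genes called lower with D4 reach further from 0 than the 1003 called higher, and genes of low level need a larger change to be called.

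Relative to the same 8 mock libraries, D4 changed 3921 of 11341 genes (34.6%), 2030 of them lower (17.9%) and 1891 higher (16.7%). D5 changed 733 of 11194 genes (6.55%), 220 lower (1.97%) and 513 higher (4.58%). Both comparisons use the same mock libraries, and their counts are given side by side only. The D5 count rested on single libraries and was 377 without D5 replicate 3 and 447 without D5 replicate 2. In a principal component analysis of 9913 genes over the D4, D5 and mock libraries, the first component (39.8% of the variance) placed the 4 D4 libraries between 0.373 and 0.460. The D5 libraries lay between −0.120 and −0.036 on it and the mock libraries between −0.209 and −0.128. On the second component (11.4%) the D5 libraries stood apart from both other groups, from 0.254 to 0.517, against at most −0.0184 elsewhere.

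Genes with a seed match made up a larger part of the genes lower with D4 than of the rest. Among 10542 tested protein-coding genes with an annotated 3′-UTR, 20.3% held a match of the 3 types. The share was 33.8% of the 1507 genes lower with D4, 43.1% of the 195 lower by over 2-fold, 16.2% of the 967 higher with D4 and 18.3% of the genes not called. Of 327 mer8 genes, 105 (32.1%) were lower with D4 and 17 (5.2%) were higher, with a median log2 fold change of −0.17. That median was −0.11 with matches in any annotated 3′-UTR of a gene and −0.047 with the shrunken fold changes of DESeq2. The counts were 176 lower and 45 higher of 710 mer7m8 genes (median −0.056), and 228 lower and 95 higher of 1104 mer7A1 genes (median −0.029). Of the 8401 genes with none of these matches, 998 (11.9%) were lower and 810 (9.64%) were higher, with a median of 0.023. Thus 998 of the 1507 lower genes have no match of these types in the annotated 3′-UTR. Side by side, the median of mer8 genes was −0.18 for D4 against mock and −0.012 for D5 against mock.

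**Figure D2:**
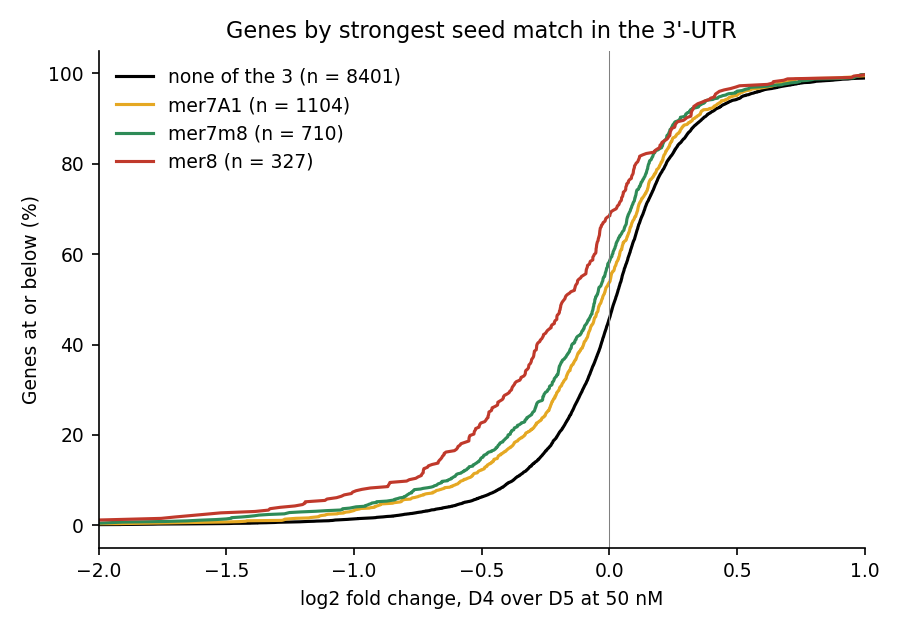
Cumulative share of genes (%, vertical axis) at or below each log2 fold change of D4 over D5 at 50 nM (horizontal axis), with genes placed by their strongest 3′-UTR match. The mer8 line (327 genes) lies furthest to the left at the median, −0.17, followed by mer7m8, mer7A1 and the 8401 genes with none of the 3 matches.

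The share of genes lower with D4 was also counted by the number of sites and by longer or weaker pairing. It was 22.4% of 1722 genes with 1 site of the 3 types, 28.1% of 334 genes with 2 sites and 34.1% of 85 genes with 3 or more. Among mer8 genes it was 30.5% where pairing ended at position 8, 35% of 40 genes with pairing to position 9 and 42.9% of 28 genes with longer pairing, groups that are small. The medians of these groups were −0.17, −0.16 and −0.19, and 12.5% of the genes with pairing to position 9 were higher with D4. In genes without any of the 3 matches, 10.1% were lower when the 3′-UTR had no TCTATA (pairing with positions 2 to 7), 18% with 1 copy and 23.8% with 2 or more. Copies of CTNTATA with a base other than C opposite position 6 went with 10.2%, 13.1% and 18.6% for 0, 1 and 2 or more copies. Longer 3′-UTRs hold more copies of any motif. The median length was 3358 bases in mer8 genes and 1664 bases in genes without a match, and the part of 3′-UTR length in these shares was not tested. For the passenger strand, 13.8% of 1750 unmatched genes holding ACACTGT were lower, against 11.4% of 6651 without it.

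The mer8 genes named above carry different roles. Uhmk1, a serine/threonine kinase, stood at 57.3, 58.0, 58.8 and 55.3 CPM in the D4 libraries and at 303, 285, 276 and 317 CPM in the D5 libraries. The groups did not overlap, and the mock range, 257 to 291 CPM, lay with D5. The log2 fold change was −2.37 ± 0.07 (SE, edgeR adjusted p = 1.38e-19). Rnft1, a RING-type ubiquitin ligase of the endoplasmic reticulum, had 12.5, 10.4, 15.0 and 13.9 CPM with D4 and 58.7, 51.7, 58.0 and 67.8 CPM with D5 (log2 fold change −2.19 ± 0.12, edgeR adjusted p = 1.8e-13). Again every D4 library was below every D5 and mock library.

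Man1a2, a mannosidase that trims N-glycans in the Golgi, had 23.6, 24.2, 30.5 and 21 CPM with D4 against 79.8, 80.6, 88.6 and 84.0 CPM with D5 (log2 fold change −1.76). Arpc5, a subunit of the Arp2/3 complex that branches actin, had 113, 95.7, 107 and 110 CPM (to 3 digits) with D4 and 322, 301, 297 and 346 CPM with D5 (−1.58). Neither gene overlapped between the siRNAs. The same held for Parp12, an interferon-induced ADP-ribosyltransferase with 31.2 to 43.2 CPM against 106 to 135 CPM (−1.64), for Gbp7 (−1.70), a guanylate-binding protein, and for Fbxo8 (−1.52), an F-box protein. Ifi204, an interferon-inducible DNA sensor, had 2.25, 3.34, 0.976 and 2.18 CPM with D4 and 4.92, 9.05, 12.4 and 7.22 CPM with D5 (−1.96, adjusted p = 3.97e-05). Ifi204 and Gbp7 belong to families of near-identical genes, where reads can be assigned wrongly or lost, and their values are uncertain. Hsd17b6, a hydroxysteroid dehydrogenase with a mer8 site that was chosen after its values were seen, had 0.749, 0.393, 0 and 0.397 CPM with D4 and 3.55, 4.10, 3.0 and 2.58 CPM with D5, which is few counts per library.

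**Figure D3:**
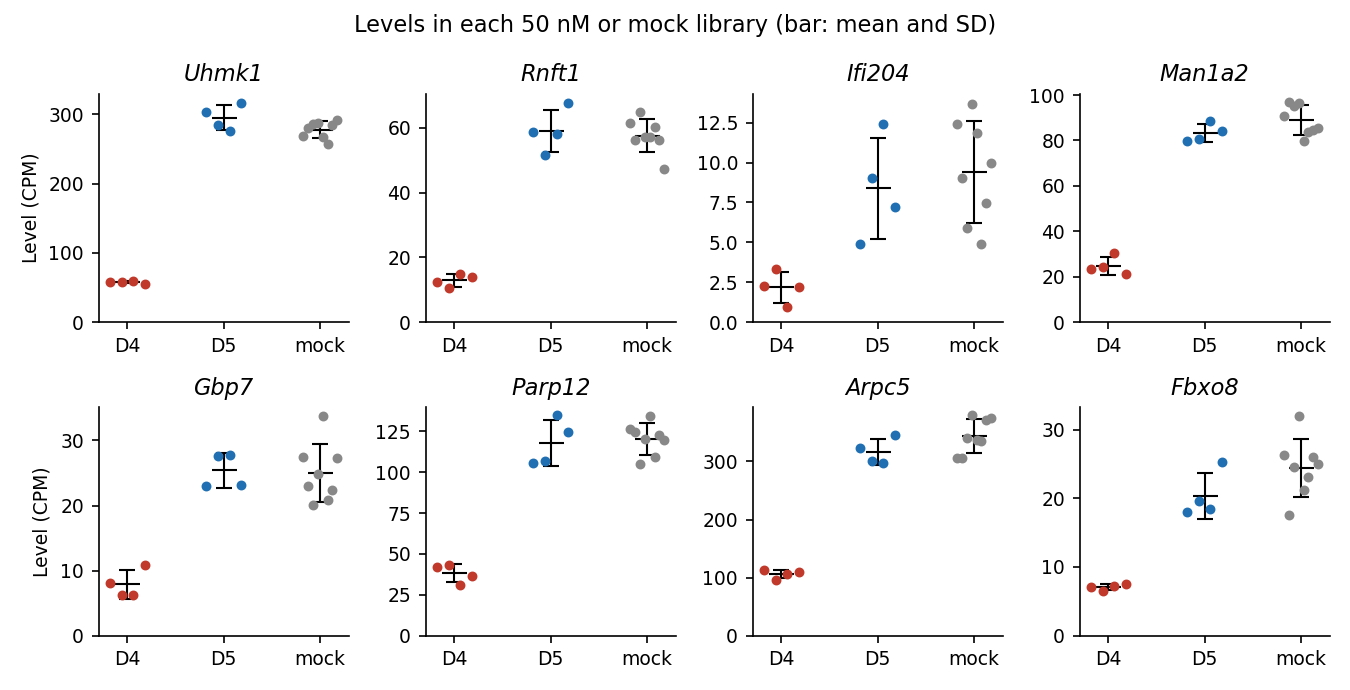
Level (CPM, linear axis from 0) of the 8 mer8 genes whose sites are printed, 1 point per library, for D4 and D5 at 50 nM (n = 4 each) and mock (n = 8), with bars for mean and SD. In each gene the 4 D4 points lie below all D5 and mock points, while D5 and mock overlap.

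Genes with a weaker match were as low in places. Tgfbr1, the type I receptor for TGF-beta with a mer7m8 site, had 8.80, 8.84, 8.59 and 10.3 CPM with D4 against 38.5, 37.7, 36.2 and 35.3 CPM with D5 (log2 fold change −2.02 ± 0.13, edgeR adjusted p = 2.64e-12). Nfkbie, an inhibitor that holds NF-kB in the cytoplasm (−2.10), Chmp1b2, an ESCRT-III component (−2.08), and Ces1d, a carboxylesterase (−1.97), are the other mer7m8 genes with the lowest values. Nfkbie was also higher with D5 than in mock (0.75 ± 0.22, adjusted p = 0.0331). Among mer7A1 genes the lowest were Igfbp7, a secreted IGF-binding protein (−3.02), Axl, a receptor tyrosine kinase (−2.36), Jdp2, a bZIP repressor (−1.93), and Cyp2c70, which hydroxylates bile acids in mice (−1.82). Axl had 7.11, 2.55, 6.64 and 3.97 CPM with D4 and 30.1, 25.7, 21.2 and 28.1 CPM with D5, without overlap. Ces1d and Cyp2c70 are members of gene families of high similarity.

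Several of the lowest genes have none of the 3 matches in the 3′-UTR. Lox, which cross-links collagen, had 3.56, 1.57, 2.54 and 3.17 CPM with D4 and 35.8, 41.6, 71.5 and 45.4 CPM with D5 (log2 fold change −4.16 ± 0.28, edgeR adjusted p = 1.16e-07). D5 replicate 3 was the highest of its group. Ugt2b1, a glucuronosyltransferase of a family of similar genes, stood at 0.786 to 1.39 CPM against 14 to 18 CPM (−3.73). Clic1, a chloride channel protein, had 41.4, 48.1, 41.0 and 45.4 CPM with D4 and 218, 226, 217 and 240.0 CPM with D5 (−2.36). Kpna6, an importin that carries proteins into the nucleus, had 25.5, 27.1, 20.9 and 25 CPM with D4 and 101, 110.1, 113 and 112 CPM with D5 (−2.15), and every D5 library was in turn below the lowest mock library, 129 CPM. F13b, a subunit of coagulation factor XIII (−2.28), and Igfbp1, an IGF-binding protein of the liver (−2.10), complete this group.

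Because Kpna6 and Clic1 have no match in the seed alone, the longest unbroken pairing of the whole guide was searched in all annotated transcripts of the tested genes, a step chosen after their values were seen. The median longest run was 8 positions over 11057 genes. Kpna6 pairs over 14 positions (guide positions 5 to 18) in its 3′-UTR, and 0.109% of tested genes have a run as long. Clic1 pairs over 13 positions (3 to 15) in its coding sequence, and Unc119b over 13 (4 to 16) in its 3′-UTR with a log2 fold change of −1.34. In Otud4, a deubiquitinase, the run of 13 starts beyond the GNA position, from 7 to 19. Genes with the same runs differed from these. Eif2d has the run of Kpna6 (5 to 18), also in its 3′-UTR, and was not called (0.17, edgeR adjusted p = 0.165). With the run of Otud4 (7 to 19), Rab34 (−1.77, at 1.64 against 5.65 CPM) and Cnot6 (−0.30) were lower with D4 than with D5. Map4k3, with that run too, was not called (−0.035). The windows of Kpna6 and Otud4, 1 with a run over position 6 and 1 without, are printed as examples, 5′ to 3′, with capitals on the run.
Kpna6 (chr4:129541273-129541302, minus strand): ccaaacaaAGTGTTCTTGCTCTgacccata
Otud4 (chr8:80403178-80403207, plus strand): gctcctttCAGTGTTCTTGCTgttcaagtt
Otud4, which also holds a mer8 match, had 60.8, 55.6, 54.7 and 54.1 CPM with D4 and 69.1, 69.4, 67.8 and 46.4 CPM with D5, against 125 to 149 CPM in mock. The overlap rested on D5 replicate 4, and the other 3 D5 libraries were above all D4 libraries. The log2 difference was −0.18 with a 95% interval from −0.39 to 0.03 (edgeR adjusted p = 0.237), and −0.30 (adjusted p = 0.00942) without D5 replicate 4. Against mock the values were −1.28 for D4 and −1.11 for D5. Zfp850, a zinc finger gene of a large family, has a run of 14 from position 7 to position 20 and a mer7m8 match. It had 4.49, 3.34, 5.86 and 3.57 CPM with D4 and 1.37, 2.16, 2.14 and 3.09 CPM with D5, which did not overlap but rest on 5 to 30 counts per library. It was higher with D4 than with D5 (0.96 ± 0.33, edgeR adjusted p = 0.0337), a call that was lost without D4 replicate 1 or 3 or D5 replicate 1, 2 or 3 (adjusted p from 0.0668 to 0.125), and at 10 nM the difference was −0.22 (adjusted p = 0.712). The values were −0.74 for D4 against mock and −1.70 for D5 against mock. Of 44 genes with a run of at least 13, 10 were lower and 4 higher with D4 than with D5, beside 13.8% and 9.07% over all genes tested. Against mock, 12 were lower with D4 and 6 with D5, beside 17.9% and 1.97%. Of the 17 genes whose run includes position 6, 5 were lower and 0 higher with D4 than with D5, and the 3 of them whose run covers positions 2 to 8 were not called. Of the 8 whose run starts at position 7 or 8, 3 were lower and 1 higher, and of the 19 whose run starts after position 8, 2 were lower and 3 higher. These groups are small, and the differences between them were not tested. Kpna6 and Clic1, whose values prompted the search, count among the 10 lower genes and among the 5 whose run includes position 6. Both also count among the 12 lower than mock with D4. The 6 lower than mock with D5 include Kpna6, and Otud4 and Zfp850, which were named for their low values in that same comparison.

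Of the genes higher with D4 than with D5, Itgb4 came first by the rule. This integrin beta-4 subunit of hemidesmosomes had 65.9, 83.7, 75.9 and 81.7 CPM with D4, 16.9, 15.3, 7.70 and 8.25 CPM with D5 and 2.31 to 5.54 CPM in mock. The 3 groups did not overlap, and the log2 fold change of D4 over D5 was 2.67 ± 0.18 (edgeR adjusted p = 4.61e-08). Epcam, an epithelial adhesion protein (2.05), St14, a membrane serine protease (1.68), and Cdcp1, a transmembrane glycoprotein (1.29), were also higher. So were Rcan2, an inhibitor of calcineurin (2.42), Steap4, a metalloreductase (2.26), Cnksr1, a scaffold of Ras signalling (2.22), and Marcks, a substrate of protein kinase C with a mer7A1 site (1.67). Marcks had 110, 127, 129 and 126 CPM with D4 (to 3 digits) and 30.9, 45.1, 46.2 and 29.4 CPM with D5. Dennd2d (1.76), Slc22a26 (1.75), Fam81a (1.63) and the matched gene Mturn (1.13, and 0.76 with an edgeR adjusted p of 0.096 in the first sequencing run alone) complete the genes named by the rule.

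Pathways were described by 34 lists of genes, each given as the number called of the number tested, beside 13.8% lower and 9.07% higher over all genes. Lists with matched genes left out hold fewer tested genes, and are read beside 11.9% lower and 9.64% higher of the 8401 unmatched genes. The tested genes with a match were 4 for apoptosis, 5 for Nrf2, 4 for cholesterol and 5 for the circadian clock. They were 7 for ubiquitin enzymes, 11 for kinases and phosphatases, 6 for insulin and growth hormone, and 2 for actin and YAP. In 23 lists more genes were lower than higher with D4. Of 13 tested NF-kB targets and cytokines, 8 were lower and 0 higher (median −0.34), and no tested member has a seed match. They include the adhesion molecules Icam1, with 25 to 41.7 CPM against 66.4 to 77.0 CPM (−1.08), and Vcam1 (−0.91), and the chemokines Ccl7 (−1.35) and Ccl2 (−1.01). In the extracellular matrix and TGF-beta list 9 of 16 were lower and 1 higher (median −0.30), among them Tgfbr1 and Tgfbr2, the other receptor subunit, with 89.3 to 102 CPM against 262 to 267 CPM (−1.48). The interferon response list had 4 lower and 1 higher of 23 (median −0.13), and 7 lower and 0 higher without D5 replicate 1 or without D4 replicate 2, with a median from −0.25 to −0.089 over the libraries left out.

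Stress and survival lists followed. The unfolded protein response list had 8 lower (5 without D4 replicate 4) and 0 higher of 20 (median −0.20), with Hspa5, the main chaperone of the endoplasmic reticulum, at −0.46 and Dnajb9, its cochaperone, at −0.54. Apoptosis regulators had 7 lower (4 with matched genes left out) and 1 higher of 16, with the inhibitors of cell death Xiap (−1.11) and Bcl2l2 (−1.20), both mer8 genes, among the lower ones. Nrf2 targets had 7 lower and 2 higher of 17, with the cystine transporter Slc7a11 at 116 to 147 CPM against 346 to 436 CPM (−1.54). Of these 7 genes 4 have a seed match, and with matched genes left out 3 were lower. The median of the list, −0.069, ran from −0.16 without D5 replicate 1 to −0.022 without D5 replicate 3, and was −0.010 with matched genes left out. Heat shock proteins had 1 lower and 3 higher of 13 (1 higher without D4 replicate 1 or any 1 of D5 replicates 1 to 3). The p53 targets had 2 lower and 2 higher of 19 (1 to 3 higher with 1 library left out). The cell cycle list had 7 lower and 4 higher of 24, with the cyclins Ccne1 (−1.59) and Ccne2 (−1.08) lower. Its lower count was 3 without D5 replicate 1 or 2 and 12 without D5 replicate 3 or D4 replicate 3. The median of the list was −0.85 for D4 against mock and −0.50 for D5 against mock.

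Liver functions differed by list. Cytochrome P450 genes had 7 lower and 2 higher of 19 (median −0.37), with Cyp2a5, which oxidizes coumarin, at 14.3 to 20.8 CPM against 43.8 to 73.0 CPM (−1.61). Coagulation genes had 6 lower and 1 higher of 21, led by F13b and by Fgg, the fibrinogen gamma chain, at 110 to 124 CPM (to 3 digits) against 241 to 319 CPM (−1.29). Acute phase and complement genes had 7 lower and 1 higher of 20, with C9 (−1.08), the last component of the membrane attack complex, among the lower ones. Cholesterol synthesis and uptake had 9 lower and 1 higher of 22 (7 and 3 without D5 replicate 3, and 7 and 0 with matched genes left out), with the sterol carrier Stard4 at −0.99 and the cyclase Lss at −0.36. Solute carriers had 6 lower and 1 higher of 21, bile acid genes 2 and 0 of 10, and plasma carriers 2 (5 without D5 replicate 1) and 0 of 18, including Apob (−0.66), the protein of very-low-density lipoprotein. With DESeq2, plasma carriers had 2 lower and 3 higher. Rbp4, the partner of transthyretin in plasma, was at −0.14 (adjusted p = 0.0897), and at −0.18 (adjusted p = 0.0373) without D5 replicate 1.

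Lists with more genes higher than lower with D4 included those for amino acids, fat and translation. Glyoxylate and one-carbon enzymes had 6 higher and 2 lower of 18 (median 0.16, and 0.32 with matched genes left out), with the dimethylglycine dehydrogenase Dmgdh at 69.3 to 82.3 CPM against 40.1 to 46.9 CPM (0.80) and the cystathionine lyase Cth at −0.83. Urea cycle and amino acid catabolism had 5 higher and 1 lower of 18, with the lysine-degrading Aass (1.22) and the glutaminase Gls2 (0.99) higher, and 3 were higher without D5 replicate 2, D5 replicate 3 or D4 replicate 4. Fatty acid synthesis had 4 higher and 1 lower of 17, with the acetyl-CoA carboxylase Acacb at 1.02 and the citrate lyase Acly at −0.46. Cytosolic ribosomal proteins had 8 higher and 0 lower of 43 (median 0.11), with Rps4x at 0.22. The count was 18 without D5 replicate 4 and 4 without D5 replicate 2 or D4 replicate 3. Side by side, the median of that list was 0.015 for D4 against mock and −0.11 for D5 against mock. The mitochondrially encoded mRNAs had 5 higher (3 without D4 replicate 3) and 0 lower of 7 tested (median 0.24, mt-Nd4 0.27). Nuclear-encoded respiratory chain genes had 2 higher and 1 lower of 40, with 0 to 4 higher over the libraries left out, 4 of them without D5 replicate 4. Of the 13 mitochondrial mRNAs listed, 6 had no count in any of the 8 libraries, and the cause was not tested. Nuclear copies of the mitochondrial sequences also make the counts uncertain.

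Regulators and RNA silencing genes made up further lists. Circadian clock genes had 4 lower and 3 higher of 17, with the activators Clock (−1.07) and Rora (−0.99), both with a seed match, lower. With matched genes left out, 1 was lower and 3 were higher. The median of the list was −0.072, with −0.17 without D5 replicate 1, −0.15 without D4 replicate 1 and 0.015 with matched genes left out. The miRNA and RNAi machinery had 6 lower and 4 higher of 27, with 1 higher without D4 replicate 1 and 2 without D4 replicate 2 or 3. Ago2, which carries the guide and has a mer7m8 site, had 283 to 344 CPM with D4 and 405 to 481 CPM with D5 (−0.56), and Dcp2, the decapping enzyme, was at −0.69. Insulin and growth hormone signalling had 5 lower and 2 higher of 24, with the growth hormone receptor Ghr at −1.08. Ubiquitin enzymes had 9 lower and 1 higher of 30, with Rnft1 and Rnf11 (−0.98), proteasome subunits 4 and 0 of 26, and kinases and phosphatases 5 and 3 of 30 (1 higher without D4 replicate 3), with Uhmk1 and Csnk1a1, casein kinase 1 alpha (−1.11), the first by p. With matched genes left out, ubiquitin enzymes had 5 lower and 1 higher, kinases and phosphatases 2 lower and 3 higher, insulin and growth hormone signalling 3 lower and 1 higher, and actin and YAP targets 3 lower and 2 higher. Actin and YAP targets had 5 lower and 2 higher of 22, with the mer8 gene vinculin (Vcl, −0.69). Liver transcription factors had 4 lower and 2 higher of 25 (1 to 3 higher with 1 library left out), with Onecut2 at −0.86. Lysosome and autophagy genes had 4 lower and 5 higher of 26, with 6 and 3 without D5 replicate 1 and 2 and 2 without D4 replicate 2. Steroid and retinoid dehydrogenases had 2 lower and 2 higher of 11 (1 to 3 higher with 1 library left out). Fatty acid oxidation had 1 and 1 of 20 (2 higher without D5 replicate 1, D5 replicate 4 or D4 replicate 4). Glucose metabolism had 1 and 0 of 15, and 0 and 0 without D4 replicate 1 or D5 replicate 4. Without D5 replicate 1, glucose metabolism had 0 lower and 1 higher.

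**Figure D4:**
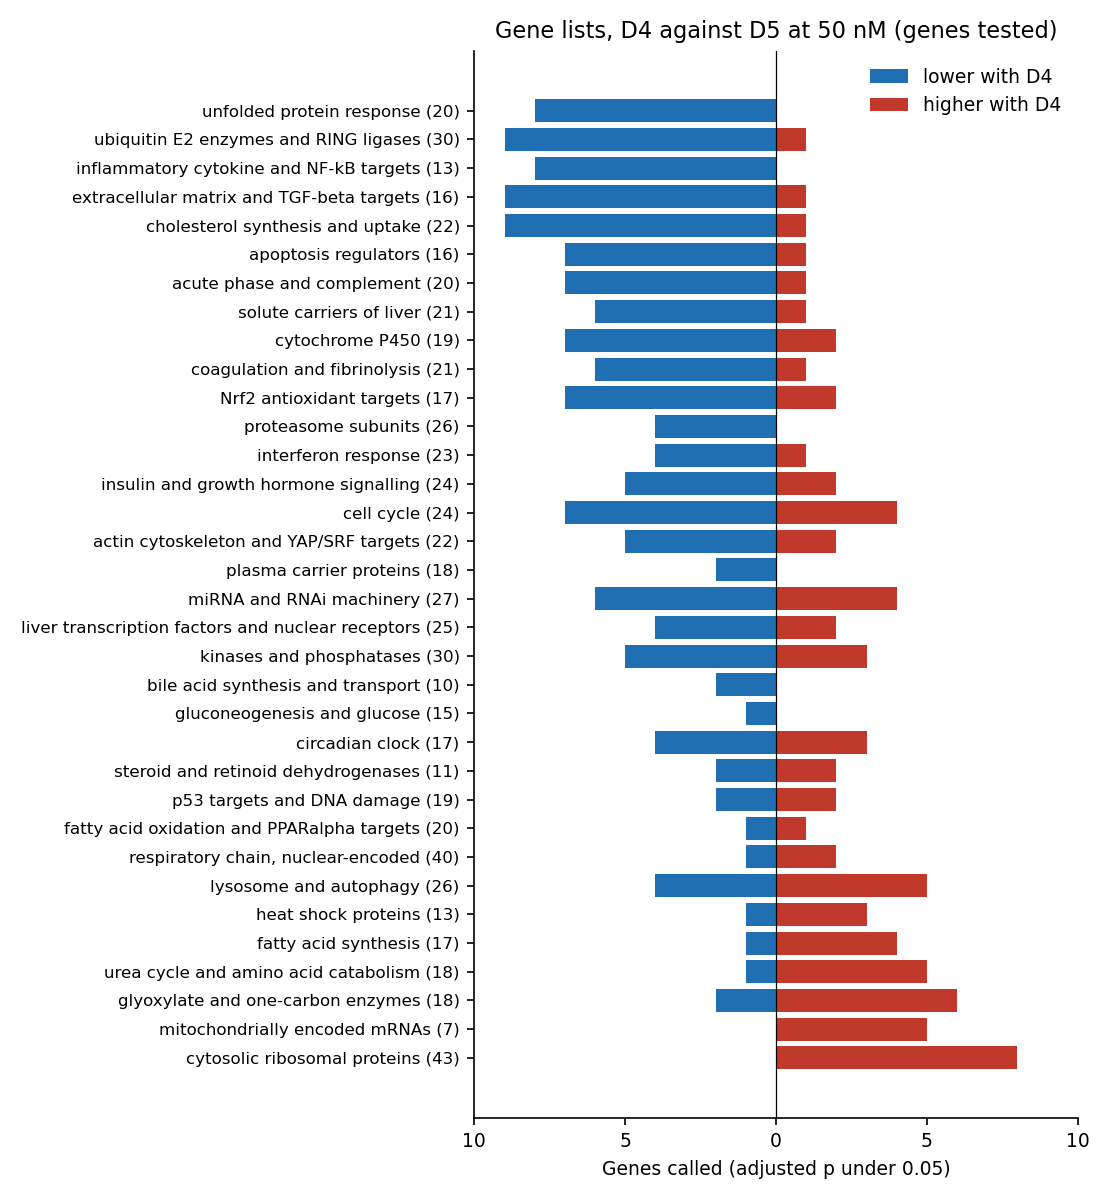
Number of genes called lower (left) or higher (right) with D4 than with D5 at 50 nM in each of 34 lists, with the number tested in brackets. The lists at the top, such as the unfolded protein response with 8 lower and 0 higher, have genes mostly on the left, and cytosolic ribosomal proteins with 8 higher are at the bottom.

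Markers of the labelled cell type were detected in both groups, at uneven levels. The 12 hepatocyte markers summed to 27879 ± 1119 CPM with D4 and 27867 ± 731 CPM with D5 (SD, n = 4 each), of which Alb, the most abundant, made up 16109 and 14771 CPM. Other members were low, with mean levels of 2.98 and 2.70 CPM for Cps1, 23.6 and 29 CPM for Cyp3a11 and 29.4 and 30.5 CPM for Cyp2e1 with D4 and D5. Of the 12 markers, 1 was lower with D4 (Apob, 2016 against 3175 CPM) and 2 were higher (Tdo2, 7.45 against 3.01 CPM, and Ass1, 245 against 199 CPM). Of 12 Kupffer cell and macrophage markers, 9 had no count in any of the 8 libraries, among them Adgre1 and Clec4f, and the only one tested, Cd68, was higher with D4 (0.50, adjusted p = 0.0195). Of 10 cholangiocyte markers 6 were tested, with Epcam higher and Krt7 lower with D4 (−1.03). Their summed level was 421, 374, 393 and 365 CPM in the D4 libraries and 386, 417, 478 and 429 CPM in the D5 libraries, with Cldn4 the most abundant and Sctr without a count. Stellate cell markers were summed to 312 ± 10.3 CPM and 381 ± 31.6 CPM, mostly Ecm1 (−0.32), while endothelial and lymphocyte or neutrophil markers stayed at 10.5 and 3.02 CPM with D4 and 13 and 3.28 CPM with D5. The part of these markers in the gene lists was not tested. ERCC spike-ins made up 1.06, 0.649, 1.43 and 0.547% of the counts with D4 and 0.484, 0.652, 1.03 and 0.753% with D5, which overlapped (exact permutation test, two-sided, p = 0.486).

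The 10 nM libraries were not used in the 50 nM comparison. Between D4 and D5 at 10 nM, 1913 of 11123 genes were called (17.2%), 1167 lower (10.5%) and 746 higher (6.71%) with D4. The higher count was 484 without D5 replicate 2 and 440 without D5 replicate 3 of that dose. Of the genes lower at 50 nM, 918 were also lower at 10 nM, which is 60.2% of the 50 nM list and 78.7% of the 10 nM list. Of those higher at 50 nM, 405 were also higher (40.4% and 54.3%), and 0 genes were called in opposite directions. Over the 1526 genes lower at 50 nM, the median log2 level relative to the mock mean was −0.34, −0.48, −0.35 and −0.31 in the D4 libraries at 10 nM. In the D5 libraries at 10 nM it was between −0.010 and 0.036, without overlap with D4. A test of whether the D4 to D5 difference itself differed between 50 and 10 nM called 0 of 11417 genes (0%) with edgeR and 0 with DESeq2, with 734 and 673 genes at an unadjusted p under 0.05.

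At 1 nM 37 of 11066 genes were called (0.334%), 32 lower (0.289%) and 5 higher (0.0452%), and all of these were called in the same direction at 50 nM. The count was 23 and 22 without D4 replicates 1 and 2 of that dose, and 73 and 21 without D5 replicates 2 and 4. Kpna6 had the smallest p (−1.03 ± 0.08, edgeR adjusted p = 6.49e-08), followed by Uhmk1 (−0.48), Tgfbr1 (−0.97) and Clic1 (−0.57), and Itgb4 (1.58) was the first of the higher ones. The 37 genes include 7 mer8 genes, all lower. At 0.1 nM 0 of 11124 genes were called (0%) with edgeR and 0 with DESeq2, with 252 and 154 genes at an unadjusted p under 0.05. The median over the genes lower at 50 nM was between −0.091 and −0.075 in the D4 libraries at 1 nM and between −0.017 and 0.016 at 0.1 nM.

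**Figure D5:**
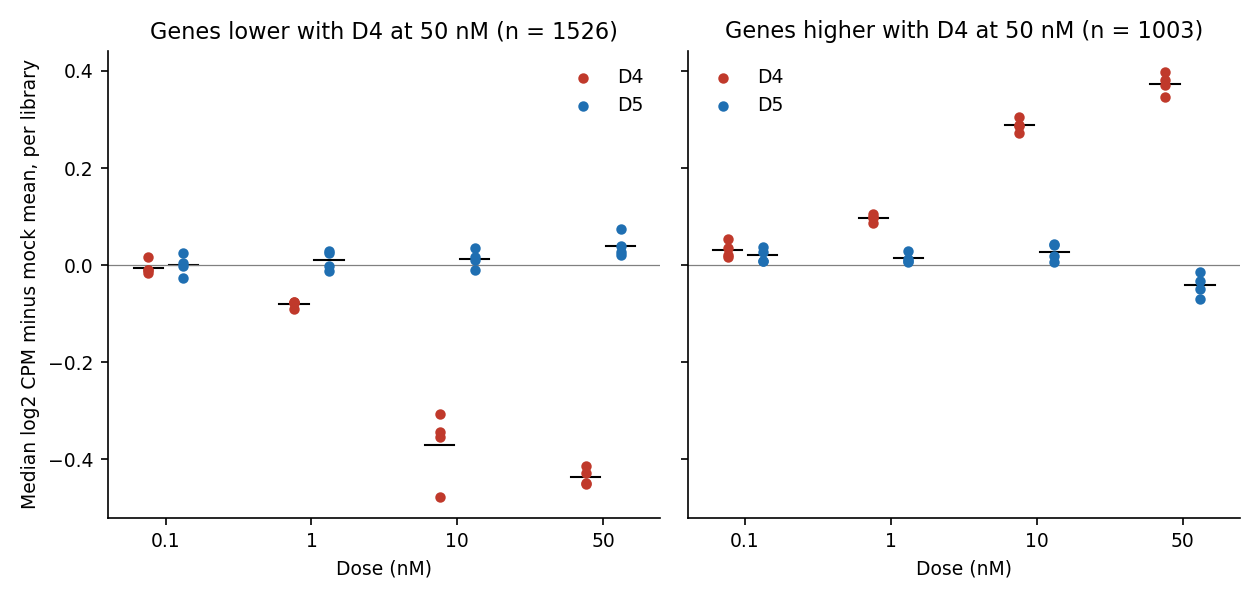
Median log2 CPM minus the mock mean in each library (points; bars are group means), over the 1526 genes lower (left) and the 1003 genes higher (right) with D4 than with D5 at 50 nM, against dose (nM, spaced evenly by dose step). The genes were chosen at 50 nM, and at 10 nM, in other libraries, D4 lies between −0.48 and −0.31 on the left while D5 lies near 0.

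A smaller set of genes differed between D5 and mock. Besides Ttr, the lowest named were Zfp850, Otud4 and Pbk, a mitotic kinase with 4.49 to 8.50 CPM with D5 and 11.5 to 20.2 CPM in mock (−1.07 ± 0.18, edgeR adjusted p = 0.000128). With D4, Pbk was at −1.23 against mock, and D4 and D5 overlapped. The highest were Itgb4 (1.66), Crct1 (1.30, adjusted p = 0.0232, and 0.0559 without D5 replicate 2), Ifi30, a lysosomal thiol reductase (1.28), and Col4a2, a chain of basement membrane collagen (1.20). Col4a2 had 561 to 673 CPM with D5, 382 to 432 CPM with D4 and 235 to 286 CPM in mock, so that all 3 groups were apart. Ifi30 had 60.9, 74.6, 90.1 and 64.7 CPM with D5 and 34.8, 40.9, 39.4 and 32.9 CPM with D4, against 25 to 37.3 CPM in mock. Bcl2l2 and Xiap, lower with D4 than with D5, were also lower with D5 than in mock (−0.48, adjusted p = 7.25e-05, and −0.24, adjusted p = 0.0187). Gapdh, a common reference gene, differed by 0.06 between D4 and D5 with a 95% interval from −0.06 to 0.18, and F12, coagulation factor XII, by 0.02 (adjusted p = 0.913). Hao1, the liver glycolate oxidase, was at −0.36 between D4 and D5 (adjusted p = 0.0941), and at −0.48 (adjusted p = 0.028) without D5 replicate 2.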

How the data were processed

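RNA from PMH (TruSeq Stranded Total RNA, NextSeq500) was sequenced in 2 runs per library. Per the study's methods, the authors filtered reads with fastq-mcf (mean quality at least 28, length at least 36), used STAR with GRCm39 for alignment and took counts of reads with a unique alignment from featureCounts 2.0.2 (version from the submitters' processing notes, mapping quality at least 10). Annotation and strand setting are not given in the sources used here, so that a gene and an overlapping antisense gene may share counts. The deposited values used are raw counts per gene. The authors' DESeq2 1.32.0 tables hold their log2 fold changes and p-values and were not used.

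Counts of the 2 runs were summed and ERCC rows left out. Groups were tested 2 at a time with edgeR 4.0.16 in R 4.3.3 (TMM, filterByExpr, robust quasi-likelihood fit, Benjamini-Hochberg, adjusted p under 0.05), without the replicate number as a block, and the step was tested on simulated data. The dose test used the 50 and 10 nM libraries of both siRNAs. CPM use all gene counts of a library, scaled by its TMM factor over the D4, D5 and mock libraries of all doses. log2 levels per library use a prior count of 2. Single values were tested by exact permutation with Python 3.11.15 and scipy 1.17.1. Seed matches were searched in the longest 3′-UTR per gene of GENCODE vM39.

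With 3659588 to 5338273 counts per library, 1 CPM is about 4 to 5 counts, and the level of Ttr is imprecise. Replicates of a group differed by more than sampling noise, and no library was left out.

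The comparison, the gene lists and the tests were chosen with earlier results of these data known. Named are Ttr, Hao1, F12, Rbp4 and Gapdh, and, among genes with adjusted p under 0.05, a mean of at least 5 CPM and no overlap between the siRNAs, the 8 mer8, 4 mer7m8, 4 mer7A1 and 6 unmatched genes with the lowest log2 fold change, the 10 highest, the 3 highest with a match, up to 2 per list with the smallest p, and by the same conditions the 4 lowest and 4 highest genes of D5 against mock. Genes without an official-style symbol were passed over. Others (Hsd17b6, Unc119b, Eif2d, Rab34, Cnot6, Map4k3, Ccl7, Ccl2 and markers) were chosen after their values were seen. Alternatives were DESeq2 1.42.0 with betaPrior, RLE factors, no filter, either run alone, more groups in the fit, the replicate block, each library left out, and other 3′-UTR definitions. For the difference between doses, DESeq2 was run without betaPrior.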

Additional observations from a re-analysis of the deposited data

Results flagged for a closer look

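In 9 of 130 groups of 4 or 8 libraries examined, all 9 of them groups of 4, 1 library stood far from the others by Dixon's test, where chance gives about 1 in 20. The gap to the nearest library, as a share of the group's range, is given for each. With D4 at 50 nM it was 0.853 for Tgfbr1 (replicate 4 at 10.3 CPM, the others from 8.59 to 8.84 CPM), 0.904 for Epcam (replicate 1 at 11.6 CPM, the others from 17.5 to 18.1 CPM) and 0.833 for Dennd2d (replicate 3 at 6.83 CPM, the others from 11.6 to 12.5 CPM). It was 0.926 for Slc22a26 (replicate 4 at 12.5 CPM, the others from 10.7 to 10.8 CPM) and 0.859 for Marcks (replicate 1 at 109.5 CPM, the others from 126 to 129 CPM). With D5 at 50 nM it was 0.931 for Otud4 (replicate 4 at 46.4 CPM, the others from 67.8 to 69.4 CPM), 0.855 for Pbk (replicate 3 at 4.49 CPM, the others from 7.92 to 8.50 CPM) and 0.854 for Gapdh (replicate 4 at 767 CPM, the others from 663 to 678 CPM). For Ttr with D5 at 0.1 nM it was 0.97, with replicate 2 at 72.3 CPM (335 counts) and the others from 1.16 to 3.32 CPM. In the first 5 genes the outlying D4 library remained on the same side of all D5 libraries as its group.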

How the results depend on the processing

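The count of genes differing between D4 and D5 at 50 nM was 2529, and 2137 with DESeq2, 2543 with RLE factors, 2519 without a filter, 1960 and 1973 in the single runs, 2705 with mock in the fit, 2809 with all libraries in the fit and 2084 to 2451 with 1 library left out. Of 394 alternatives for counts, medians and shares, 351 stayed within 1.5 times the reported count, within 1 SD between libraries of the reported median or on the same side of the threshold for the ERCC share, and the other 43 moved further, with the values and ranges that follow. Of 1459 for single genes, 32 lost the call, 4 gained it and 3 changed sign. All 3 sign changes were of F12, whose value lies near 0 (−0.019 in run 1 alone, −0.02 without D4 replicate 2 and −0.044 without D5 replicate 3, with a range up to 0.054 over the libraries left out). Crct1 lost its call against mock with the replicate block (adjusted p = 0.125), and Hsp90aa1 between D4 and D5 with the block (0.0586), in run 2 alone and in 7 of the 8 fits with 1 library left out (0.0547 to 0.172). Ndufa4 lost it in both single runs and in 5 of those 8 fits (0.052 to 0.106). Mturn was not called in run 1 alone (0.096), nor Zfp850 between D4 and D5 with DESeq2 (0.0889). The replicate numbers do not pair the libraries (correlation of deviations −0.091, 0.043, 0.026 and −0.0064 for numbers 1 to 4). With the replicate number as a block, 2541 genes were called between D4 and D5 at 50 nM (2432 shared with the fit without it), 3285 and 700 for D4 and D5 against mock, 2244 at 10 nM, 41 at 1 nM, 0 at 0.1 nM and 0 for the difference between doses. The block fits against mock also tested fewer genes, 11135 and 10861 against 11341 and 11194, so that the block was not their only change. Mock numbers 5 to 8 have no counterpart among the D4 and D5 libraries.

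At 1 nM the count was 96 without a filter (75 lower, 21 higher), 8 genes were higher with DESeq2, and with 1 library left out it ran from 21 to 73 (18 to 56 lower, 3 to 17 higher). Without a filter, 1 gene, Cyp2a5, differed between the doses (1 lower). With 1 library left out, D5 against mock gave 377 to 719 genes (93 to 264 lower, 284 to 479 higher), 440 to 730 genes were higher at 10 nM, and 0 were called for 0.1 nM or the dose difference. The mer8 median was −0.22 with the canonical 3′-UTR, −0.11 with any annotated 3′-UTR, −0.23 as a mean and −0.047 with the shrunken DESeq2 fold changes. By the same settings mer7m8 gave −0.079 (canonical), −0.12 (mean) and −0.019 (DESeq2), and mer7A1 −0.053 (canonical), −0.013 (any), −0.078 (mean) and −0.0102 (DESeq2). Genes without a match gave 0.0064 (mean), 0.028 (RLE) and 0.0077 (DESeq2). Leaving out 1 library gave −0.19 to −0.15 for mer8, −0.067 to −0.048 for mer7m8, −0.036 to −0.023 for mer7A1, 0.019 to 0.023 for unmatched genes, 0.02 to 0.31 percentage points for the ERCC difference (0.19) and 22 to 26 for the lists with more genes lower. Canonical and any-transcript settings change which genes hold a match. The DESeq2 setting shrinks fold changes and also tested other genes (12189 against 11064). The median of NF-kB targets and cytokines was −0.33 with it, against −0.34. The cause of the shifts with DESeq2 and of the others was not tested. Depth limits the level of Ttr and of genes below about 5 CPM.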

Other observations

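For several lists the median relative to mock lay on opposite sides of 0 for the 2 siRNAs at 50 nM. The values share the mock libraries and are given side by side without a test. For NF-kB targets and cytokines the median was −0.32 with D4 and 0.14 with D5. It was −0.12 and 0.22 for extracellular matrix and TGF-beta genes, −0.11 and 0.18 for cytochrome P450 genes, −0.11 and 0.058 for the unfolded protein response, and −0.034 and 0.14 for solute carriers. In coagulation genes both medians were above 0, at 0.067 with D4 and 0.16 with D5. Fgg and Tgfbr2 also lay on opposite sides of mock. Fgg was at −0.85 with D4 and at 0.44 with D5 relative to mock (edgeR adjusted p = 5.19e-05 for D5), and Tgfbr2 was at −1.08 and 0.39 (5.35e-06 for D5). Slc40a1, the iron exporter, had 113 to 129 CPM with D4 and 163 to 208 CPM with D5, against 110.0 to 143 CPM in mock, so that its D4 values lay within the mock range and its D5 values above it.

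The cell cycle list had a median of −0.31 between D4 and D5 at 50 nM and of 0.016 at 10 nM. For fatty acid synthesis it was 0.12 and −0.062, and for the urea cycle and amino acid catabolism 0.055 and −0.018. For cytosolic ribosomal proteins it was 0.11 and 0.24, and for nuclear-encoded respiratory chain genes 0.044 and 0.18. With 1 library left out the 50 nM medians ran from −0.43 to −0.21 for the cell cycle, from −0.020 to 0.084 for the urea cycle, from 0.073 to 0.12 for fatty acid synthesis and from 0.030 to 0.092 for the respiratory chain. Whether these medians differ between the doses was not tested.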
